A study of Mus musculus with 653 samples.

Results

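Single cells from mouse livers of embryonic day E10.5 that were sorted as Lgr5-GFP+ were compared with cells of the bulk sort of the same stage. The comparison took every E10.5 cell that the sample labels gave to either sort. In the 5 library pools these were 45, 47, 40, 41 and 38 Lgr5-GFP+ cells and 42, 41, 41, 42 and 37 bulk cells, or 32.3% and 31.1% of the 653 cells of the series. All embryos came from Lgr5-EGFP-IRES-creERT2 males, kept on a C57BL/6 background and mated with MF1 females. In this line EGFP and creERT2 are knocked into the *Lgr5* locus, so GFP marks cells in which that locus is or recently was active. The study screened embryos for GFP, digested their livers, and sorted cells singly into plates. Both sorts took Liv2+ cells that were negative for CD31, a protein of endothelial cells, and for CD45, a protein of leukocytes. The Lgr5-GFP+ sort asked for GFP in addition, and the bulk sort was not gated on GFP. The labels name no embryo, litter or sort day, so each sort is 1 sample here and no p-value is given.

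Hepatoblasts are the shared precursors of hepatocytes and cholangiocytes. They bud from the foregut endoderm into the mesenchyme of the septum transversum, and at this stage the liver is also being colonised by blood-forming cells. They are known for making the serum proteins of the embryo, among them alpha-fetoprotein, albumin, apolipoproteins and fibrinogen, under transcription factors of the HNF and FOXA families. *Lgr5* is a receptor for R-spondins. When an R-spondin binds it, the membrane E3 ligases *Rnf43* and *Znrf3* are cleared from the cell surface, Frizzled receptors stay there longer, and the response to Wnt ligands is stronger. *Lgr5* is itself a Wnt target gene and marks stem cells in the intestine, stomach and hair follicle.

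The values are the deposited read counts per gene and cell. A level is given as reads per 1000000 summed reads of a sort (RPM), with an exact 95% Poisson interval. A cell is called positive for a gene with more than 10 reads, and a share of cells has an exact Clopper-Pearson 95% interval. Both intervals cover counting error only, since reads are PCR copies and cells of a sort are not replicates. Cells held between 463347 and 2279700 reads in the Lgr5-GFP+ sort and between 512970 and 2029763 in the bulk sort. The 5 library pools, which each held cells of both sorts, served as technical batches. Thinned to 100000 reads per cell, cells of pools 1 and 2 had median counts of 1732 to 2329 detected genes, against 4148 to 5404 in pools 3 to 5. Over all pools the thinned median was 4390 genes in Lgr5-GFP+ and 3954 in bulk cells. It was higher in Lgr5-GFP+ cells in each pool but pool 1, where it was 1930 against 1992.5. Shares and numbers of positive cells are not adjusted for this difference, except where thinning is named. No 2 cells held identical counts. A gene was called higher or lower if its level differed by more than 2-fold between the sorts and lay on the same side in at least 4 of the 5 pools. Only the 12365 genes with more than 10 reads in at least 10 cells of both sorts together were compared in this way. A gene could pass this filter through cells of 1 sort alone. How many compared genes of a list were called therefore rests partly on the filter. Where a gene had no read in a sort and more than 3 in the other, the count of 0 was set to 3 reads for the ratio.

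*Lgr5* itself (ENSMUSG00000020140, chr10:115450311-115587780, minus strand, GRCm38) checks the labels. Its level was 65.3 RPM (64.3 to 66.3) in Lgr5-GFP+ cells and 2.69 RPM (2.49 to 2.90) in bulk cells, a 24.3-fold difference. Positive cells numbered 62 (29.4%, 23.3 to 36.03) in the Lgr5-GFP+ sort and 5 (2.46%, 0.804 to 5.65) in the bulk sort. Most cells sorted for the reporter thus had few or no reads of the gene, and 53.1% of them had any read, against 18.7% of bulk cells. Among the positive cells alone the median level was 135.9 RPM in the Lgr5-GFP+ sort and 99.5 RPM in the bulk sort.

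Pool 1 stood apart. In pools 1 to 5 the *Lgr5* level of the Lgr5-GFP+ cells was 5.35, 85.98, 107.2, 66.02 and 60.5 RPM, and that of the bulk cells was 4.95, 0.117, 1.196, 2.503 and 5.03 RPM. The sorts did not overlap in pools 2 to 5, where every Lgr5-GFP+ level lay above every bulk level, but in pool 1 the cells labelled Lgr5-GFP+ were level with the bulk cells. A single cell gave 97.5% of the *Lgr5* reads of the cells labelled Lgr5-GFP+ in that pool and another gave 97.98% of those of its bulk cells. Positive cells numbered 1, 11, 20, 16 and 14 in the Lgr5-GFP+ sort and 1, 0, 2, 1 and 1 in the bulk sort. Without pool 1, 36.7% of Lgr5-GFP+ cells and 2.48% of bulk cells were positive. Whether the labels of pool 1 are right cannot be told from these values, and its cells stay in the sums under their labels. Without pool 1 the log2 ratio of the summed level was 5.24 for *Lgr5*, 3.50 for the list of hepatoblast markers and -3.81 for the erythroid list described below.

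**Figure D1:**
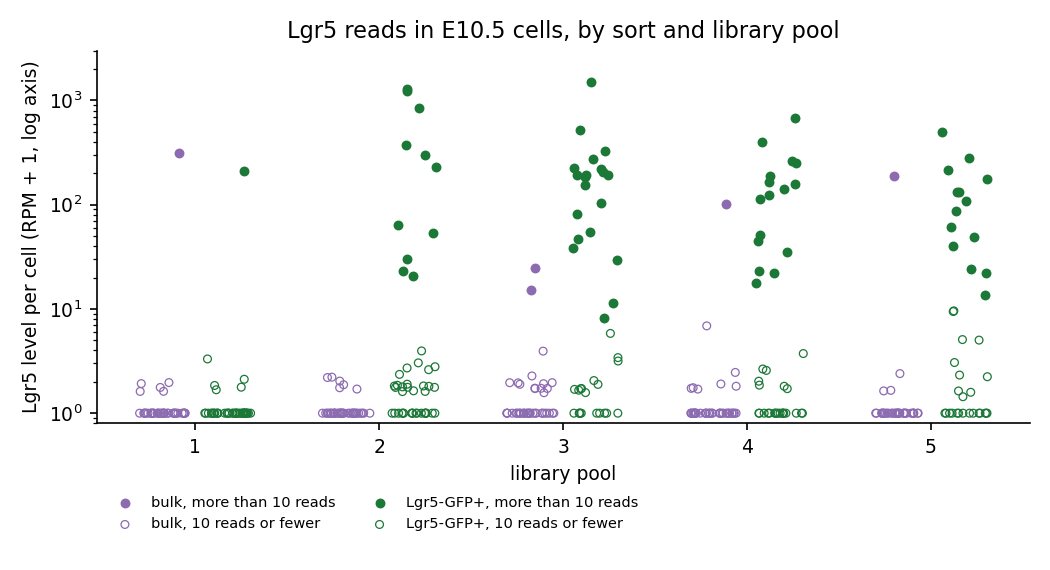
*Lgr5* level in each E10.5 cell, as RPM + 1 on a log axis, by library pool and sort. Filled points are cells with more than 10 *Lgr5* reads: 62 Lgr5-GFP+ cells and 5 bulk cells, with 1 of each in pool 1.

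Liver genes were higher in the Lgr5-GFP+ sort. All 13 compared genes of a list of 14 hepatoblast markers were called higher in Lgr5-GFP+ cells, where 7.77% of all compared genes were called higher and 5.73% lower. Their median log2 ratio was 3.52, beside -0.00 over all compared genes, and the remaining gene, *Trf*, was listed at 0 in every cell. Summed over the list, the level was 5491 RPM (5482 to 5500) in Lgr5-GFP+ and 536 RPM (533 to 539) in bulk cells. In these sums, more cells of a type and more RNA per cell cannot be told apart.

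The promoters of the embryo's main serum protein genes, and of genes that differed the other way, are shown here because each holds a short motif of a factor known to act in its lineage. The windows are RefSeq sequences of GRCm38.p6, from 250 bases before to 50 after the transcription start, all on the plus strand, with the motif in capitals. *Afp* (chr5:90490464-90490763) encodes alpha-fetoprotein and *Alb* (chr5:90460620-90460919) encodes albumin. In both the capitals mark GTTAAT, the core of the site bound by HNF1 factors. *Klf1* (chr8:84901732-84902031) encodes the erythroid Krüppel-like factor and *Rhag* (chr17:40810899-40811198) a glycoprotein of the red cell membrane. In these the capitals mark a GATA motif, AGATAA or TGATAA or the reverse complement of either.
Afp: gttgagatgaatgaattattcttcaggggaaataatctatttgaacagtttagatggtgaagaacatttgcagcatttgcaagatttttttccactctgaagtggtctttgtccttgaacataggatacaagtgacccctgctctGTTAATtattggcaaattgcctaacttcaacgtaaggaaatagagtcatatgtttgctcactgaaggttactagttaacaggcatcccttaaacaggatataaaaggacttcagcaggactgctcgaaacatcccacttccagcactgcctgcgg
Alb: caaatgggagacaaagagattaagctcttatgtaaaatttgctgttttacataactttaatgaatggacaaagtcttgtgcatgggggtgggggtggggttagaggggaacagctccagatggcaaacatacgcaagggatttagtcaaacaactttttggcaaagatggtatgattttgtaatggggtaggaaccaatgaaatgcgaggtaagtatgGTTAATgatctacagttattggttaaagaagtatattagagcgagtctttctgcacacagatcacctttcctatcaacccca
Klf1: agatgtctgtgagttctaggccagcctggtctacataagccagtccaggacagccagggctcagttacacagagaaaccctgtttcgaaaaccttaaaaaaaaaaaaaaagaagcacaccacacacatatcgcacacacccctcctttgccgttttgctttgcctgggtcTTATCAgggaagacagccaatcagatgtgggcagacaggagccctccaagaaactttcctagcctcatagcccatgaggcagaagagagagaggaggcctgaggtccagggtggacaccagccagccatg
Rhag: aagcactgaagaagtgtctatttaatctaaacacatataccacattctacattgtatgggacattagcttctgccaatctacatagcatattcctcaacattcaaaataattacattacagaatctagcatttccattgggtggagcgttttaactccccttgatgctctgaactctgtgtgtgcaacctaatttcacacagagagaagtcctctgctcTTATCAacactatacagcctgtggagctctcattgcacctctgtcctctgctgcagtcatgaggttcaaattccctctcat

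Searched on both strands, GTTAAT was present in the window of 5 of the 11 hepatoblast list genes with an entry (*Afp*, *Alb*, *Fga*, *Fgb* and *Hnf4a*), which is 45.5%, against 8.24% of the 27025 genes of the RefSeq promoter table. It was found for 0 of 13 erythroid list genes. The GATA motif was present for 10 of 13 erythroid list genes (76.9%), for 3 of 11 hepatoblast list genes and for 20.96% of all genes. A match describes the letters of the window and is not evidence of binding. *Lgr5* had no entry in the table.

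*Afp*, the main serum protein of the early liver, had levels of 39.5, 752, 969, 539 and 871 RPM in the Lgr5-GFP+ cells of pools 1 to 5, and of 25.8, 56.8, 45.2, 1.83 and 20.8 RPM in the bulk cells. Every Lgr5-GFP+ pool from 2 to 5 lay above every bulk pool, and the ratio of the summed levels was 20.9-fold, with 55 and 8 positive cells. *Alb* was at 56.6, 1227, 187.04, 289 and 242 RPM in the Lgr5-GFP+ pools and at 0.0201, 0.743, 95.4, 0.112 and 92.9 RPM in the bulk pools. The 48 positive Lgr5-GFP+ cells spread its reads widely, with 10.98% from the highest cell, whereas 1 of 6 positive bulk cells gave 53.5% of the bulk reads. *Apoa2*, an apolipoprotein of high-density lipoprotein, reached 120.02, 6357, 856, 942 and 1286 RPM in the Lgr5-GFP+ pools and 26.9, 538, 121.1, 0.430 and 255 RPM in the bulk pools. *Ttr*, the carrier of thyroxine and retinol-binding protein, was the exception in pool 1, where its level was 16.2 RPM in Lgr5-GFP+ and 162.02 RPM in bulk cells. In pools 2 to 5 it was higher in Lgr5-GFP+ cells, and over all pools it was at 655 against 110.9 RPM.

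Pool 2 carried much of this signal. The summed level of the hepatoblast list was 337, 14303, 4053, 3191 and 4440 RPM in the Lgr5-GFP+ cells of pools 1 to 5 and 260, 898, 668, 17.9 and 886 RPM in the bulk cells. It was higher in Lgr5-GFP+ cells in each pool, least so in pool 1.

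Longer lists of secreted liver proteins differed in the same direction, but they share called genes with the hepatoblast list. Shared are *Alb*, *Afp* and *Ttr* among the carriers, *Apoa1*, *Apoa2* and *Apob* among the apolipoproteins, and *Fga*, *Fgb* and *Fgg* in coagulation. Those calls are therefore counted again in the numbers below. Of a list of carrier proteins, all 8 compared genes were called higher, among them *Rbp4*, which carries retinol (1880 against 124.6 RPM), *Ambp*, the precursor of alpha-1-microglobulin and bikunin (953 against 75.5 RPM), *Serpina6*, the carrier of glucocorticoids (703.7 against 56.1 RPM), and *Shbg*, which binds sex steroids (53.03 against 2.09 RPM). Of the apolipoproteins, 6 of 7 compared genes were called. *Apoe*, which other cells of the embryo also make, differed least of these, at 1877 against 459 RPM, with 54.5% and 45.3% of cells positive. *Apoh* was the uncalled gene, at 0.608 against 1.62 RPM. Of 15 compared genes of coagulation and complement, 13 were called higher. The chains of fibrinogen stood at 99.9 against 22.1 RPM for *Fga*, 841 against 70.8 RPM for *Fgb* and 164.2 against 14.5 RPM for *Fgg*. *Proc*, the zymogen of activated protein C, had 11.1 against 0.0198 RPM, and *Kng1*, the precursor of bradykinin, had 19.04 against 0.3003 RPM. *F10* and *Pros1* were the 2 genes not called, at 35.05 against 36.8 RPM and 14.3 against 19.1 RPM.

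The hepatic transcription factors gave a more divided picture, with 10 of 13 compared genes called higher and a median log2 ratio of 2.26. Of the called genes, *Hnf4a* and *Foxa3* stand on the hepatoblast list as well. *Foxa1*, a pioneer factor of the endoderm, had 20 positive Lgr5-GFP+ cells and no positive bulk cell, at 18.1 against 0.0356 RPM. *Hnf4a*, the nuclear receptor that drives the hepatocyte programme, was at 0.0563, 114.5, 41.95, 20.4 and 37.2 RPM in the Lgr5-GFP+ pools and at 0, 0.0978, 5.32, 0.0374 and 6.38 RPM in the bulk pools. It was higher in Lgr5-GFP+ cells in each of pools 2 to 5, and in pool 1 it was near 0 in both sorts. *Foxa2*, *Foxa3*, *Onecut2*, *Cebpa*, *Prox1*, *Nr5a2* and *Tbx3* were also called, with ratios from 2.75-fold for *Tbx3* to 23.4-fold for *Foxa3*. *Hhex*, needed for the outgrowth of the liver bud, was 1.76-fold higher and not called. *Gata6* (104.4 against 102.6 RPM) and *Gata4* (35.5 against 66.6 RPM), which are also active in mesoderm, were not called either.

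Genes of the mature hepatocyte were at low levels in both sorts. Of the list of metabolic enzymes, 6 of 14 passed the filter. *Otc*, of the urea cycle, was called higher at 11.7 against 0.0632 RPM with 10 positive Lgr5-GFP+ cells, as was *Gys2*, the liver glycogen synthase, at 9.84 against 1.004 RPM. *Arg1* was called lower at 14.6 against 34.97 RPM. *Tat* and *Hpd* were listed at 0 in every cell. So were *Trf*, *Igf2*, *Xist* and 12 of the 30 Hox genes, and whether such a 0 means no expression was not tested. Of the cholangiocyte list, *Sox9*, known for its role in bile duct precursors, did not reach the limit at 118.6 against 105.7 RPM, although 93 Lgr5-GFP+ and 44 bulk cells were positive. *Spp1* was read in 1 positive cell of each sort. Among the epithelial genes, *Cdh1*, which encodes E-cadherin, was called at 18.1 against 0.798 RPM and *Epcam* at 76.9 against 13.98 RPM. Both stand on the hepatoblast list as well. *Ocln* was called at 12.9 against 2.54 RPM and *Esrp1* at 3.02 against 0.474 RPM.

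To ask how many cells lay behind these sums, cells with more than 10 reads on at least 3 of the 14 hepatoblast genes were counted. This is a range on a score and not a cell type. It held 63 Lgr5-GFP+ cells (29.9%, 23.8 to 36.5) and 7 bulk cells (3.45%, 1.40 to 6.98). By pool these were 1, 34, 12, 7 and 9 Lgr5-GFP+ and 1, 2, 2, 0 and 2 bulk cells. Cells just outside the limit, with 2 positive genes, numbered 10 and 1, and cells just inside, with 3, numbered 5 and 1. Without pool 2 the range held 17.7% of Lgr5-GFP+ and 3.09% of bulk cells. The labels call all of these cells hepatoblasts, yet 51.7% of Lgr5-GFP+ and 77.8% of bulk cells were positive for none of the 14 genes.

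**Figure D2:**
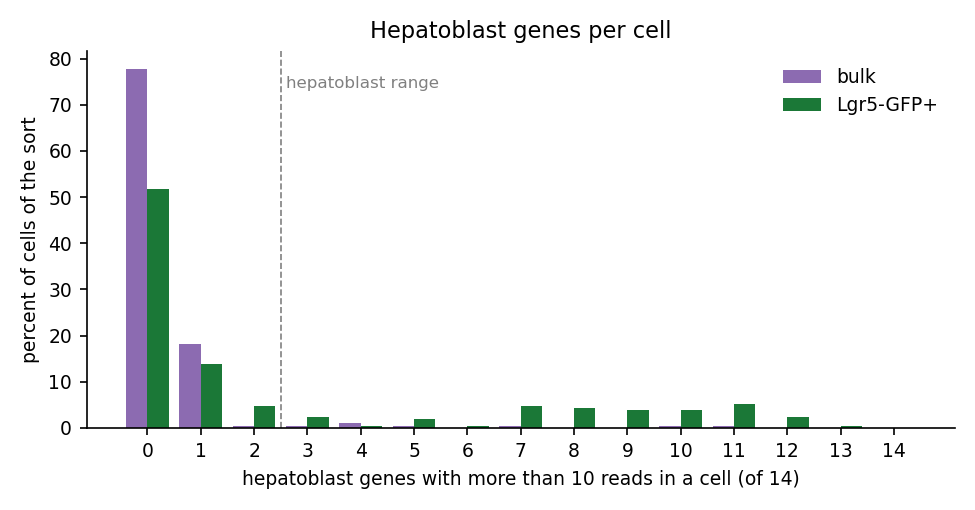
Share of the cells of each sort, in percent, by the number of the 14 hepatoblast genes with more than 10 reads. None was positive in 51.7% of Lgr5-GFP+ and 77.8% of bulk cells, and 63 Lgr5-GFP+ and 7 bulk cells had at least 3.

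Within the hepatoblast range the sorts were set side by side only as values, because 7 bulk cells came from 4 pools. *Afp* was at 2128 RPM in the 63 Lgr5-GFP+ and 815 RPM in the 7 bulk cells, *Alb* at 1424 and 1019 RPM, and *Apoa2* at 6846 and 5123 RPM. Summed levels of *Ttr* were 2208 and 3053 RPM, while its median cell was at 2108 RPM in the Lgr5-GFP+ and 1093 RPM in the bulk cells. For *Alb* the median cell was at 884 against 13.9 RPM, so few of the 7 bulk cells held most of its bulk reads. *Lgr5* was positive in 27 of the 63 Lgr5-GFP+ cells (42.9%, 30.5 to 55.95) and in 0 of the 7 bulk cells, for which the interval reaches 40.96%. Its summed level there was 110.6 RPM in Lgr5-GFP+ and 0.110 RPM in bulk cells.

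*Lgr5* reads were not limited to the hepatoblast range. Of the 62 positive Lgr5-GFP+ cells, 27 lay in it and 31 in a range set in the same way on 12 mesenchyme genes. Ranges set on cholangiocyte, muscle progenitor and erythroid genes (globins included) held 8, 7 and 6. The cholangiocyte range held 22 Lgr5-GFP+ cells, of which 36.4% (17.2 to 59.3) were positive, and 4 bulk cells, of which 0 were. Whether its cells lie in the study's cholangiocyte-like cluster, where the study reports no renewed *Lgr5* expression, was not tested. A cell can lie in more than 1 range, and 5 Lgr5-GFP+ cells lay in both the hepatoblast and the mesenchyme range. All 5 positive bulk cells lay in the mesenchyme range. In that range 31 Lgr5-GFP+ cells (27.2% of those in it) and 5 bulk cells (4.20%) were positive, at summed levels of 46.7 and 4.49 RPM.

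The mesenchyme range was the largest in both sorts, with 54.03% of Lgr5-GFP+ cells (47.1 to 60.9) and 58.6% of bulk cells (51.5 to 65.5). By pool it held 27, 11, 25, 31 and 20 Lgr5-GFP+ cells and 26, 17, 25, 25 and 26 bulk cells. Summed over its 12 genes the level was 2697 and 2695 RPM, but the pools differed in opposite directions. By pool the sum was 3969, 803, 1541, 6286 and 1117 RPM in Lgr5-GFP+ and 3093, 4060, 1737, 2283 and 2320 RPM in bulk cells, so that it was higher in Lgr5-GFP+ cells in pools 1 and 4 and lower in the others. Without pool 4 the log2 ratio of the sum was -0.60 and without pool 2 it was 0.46. *Pdgfrb*, a receptor of pericytes and other stromal cells, was the 1 gene of the list that was called, at 92.5 against 37.9 RPM. *Col1a1* (433 against 417 RPM) and *Col3a1* (539 against 655 RPM), which encode fibrillar collagens, differed little. *Pdgfra*, the other PDGF receptor, was at 81.3 against 153.9 RPM and was not called.

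**Figure D3:**
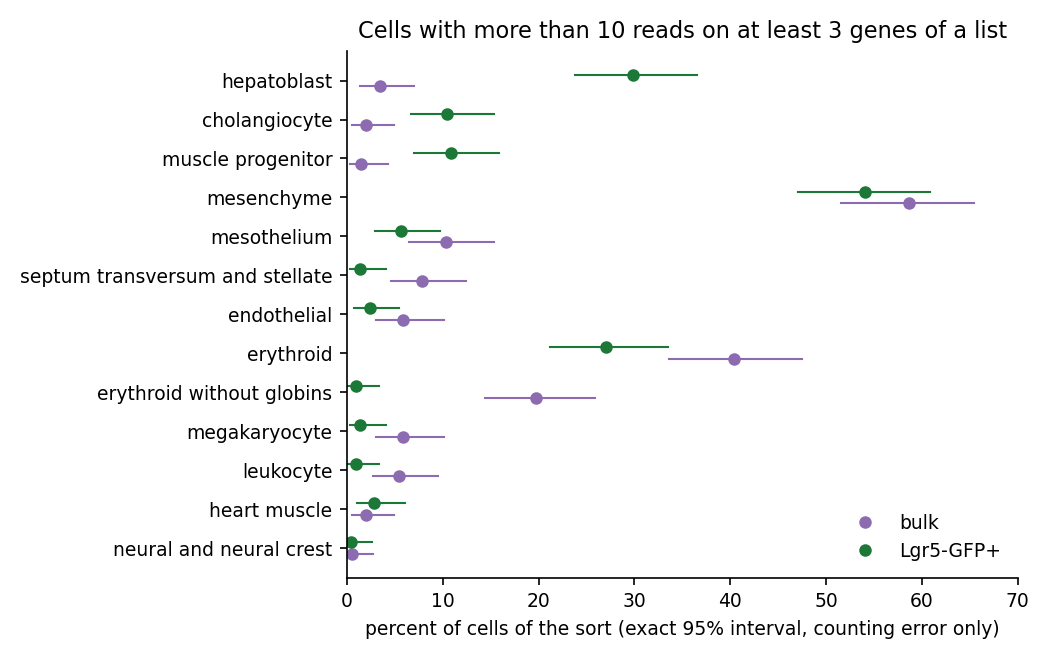
Percent of the cells of each sort with more than 10 reads on at least 3 genes of each marker list, with exact 95% intervals that cover counting error only. The hepatoblast range holds 29.9% of Lgr5-GFP+ and 3.45% of bulk cells, the muscle progenitor range 10.9% and 1.48%, and the erythroid range without globins 0.948% and 19.7%.

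Of the marker lists, the erythroid list had the most genes called lower. Of 15 compared genes of the erythroid list 13 were called lower in Lgr5-GFP+ cells, and with the globins left out all 11 were, with a median log2 ratio of -6.42. The summed level of these genes was 72.4 RPM in Lgr5-GFP+ and 656 RPM in bulk cells. By pool it was 17.8, 81.99, 123.4, 74.1 and 64.6 RPM against 177.2, 506.1, 872, 1088 and 591 RPM, so every bulk pool lay above every Lgr5-GFP+ pool. *Klf1*, which switches on genes of red cell maturation, was at 0.225, 0.0516, 0.0963, 2.69 and 0.0423 RPM in the Lgr5-GFP+ pools and at 50.6, 97.4, 242, 223 and 152.6 RPM in the bulk pools. It was positive in 1 Lgr5-GFP+ and 35 bulk cells. *Rhag* was at 0.0385 against 35.9 RPM with 0 and 21 positive cells. *Gata1*, the main erythroid transcription factor, was at 5.98 against 82.2 RPM, and 80.6% of its Lgr5-GFP+ reads came from 1 cell. *Epor*, the erythropoietin receptor, was at 9.67 against 59.3 RPM.

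The share of cells followed the genes. Without globins, the erythroid range held 2 Lgr5-GFP+ cells (0.948%) and 40 bulk cells (19.7%), the latter numbering 1, 4, 11, 17 and 7 by pool. With globins it held 57 Lgr5-GFP+ and 82 bulk cells, but 45 of the former were all the Lgr5-GFP+ cells of pool 1, against 34 bulk cells in that pool. In pools 3 to 5 alone the range with globins held 10.1% of Lgr5-GFP+ and 36.7% of bulk cells.

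The globins did not move as a block. *Hbb-bh1*, an embryonic beta-type globin, was called lower at 7.71 against 552 RPM, with 52.98% of the bulk reads from 1 cell. *Hba-a1*, an adult-type alpha globin, was called lower at 6.13 against 24.5 RPM. It has a near-identical copy that could share its reads, so its level is uncertain. *Hba-x*, the embryonic zeta globin, was at 240, 0.0172, 2.75, 14.1 and 2.94 RPM in the Lgr5-GFP+ pools and at 125.35, 0, 0.854, 31.3 and 6.52 RPM in the bulk pools. Both sorts were highest in pool 1 and the side that was higher changed between pools. *Hbb-y*, another embryonic globin, was likewise highest in pool 1, at 148.6 and 69.9 RPM, and neither gene was called.

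Markers of other blood lineages and of vessels gave few calls. The megakaryocyte range held 3 Lgr5-GFP+ and 12 bulk cells and the leukocyte range 2 and 11. Of the leukocyte list, 3 genes passed the filter and *Laptm5* was called lower at 2.26 against 23.7 RPM, while *Ptprc*, which encodes CD45, and *Cd52* had no positive cell in either sort. *Ppbp*, a chemokine of platelets, was called higher at 104.5 against 1.77 RPM, but 75.2% of its reads came from 1 cell. The endothelial range held 5 and 12 cells, with *Kdr*, a VEGF receptor, called lower at 12.3 against 28.1 RPM. *Pecam1*, which encodes CD31, was at 9.13 against 8.13 RPM. The heart muscle range held 6 Lgr5-GFP+ and 4 bulk cells and the neural range 1 of each.

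Muscle progenitor genes formed a further group that was higher in Lgr5-GFP+ cells. *Pax3*, *Lbx1* and *Met* are known for muscle precursors that leave the somites, and *Myf5* and *Myod1* start the myogenic programme. Of the 6 compared genes 5 were called higher, with a median log2 ratio of 3.14 over the list. *Pax3* (chr1:78101267-78197134, minus strand) was at 1.86, 1.67, 171.9, 124.35 and 174.75 RPM in the Lgr5-GFP+ pools and at 27.4, 0, 9.23, 0.149 and 13.01 RPM in the bulk pools. Pools 3 to 5 carried the difference, and in pool 1 the bulk cells were higher. *Lbx1* was at 13.96 against 0.668 RPM with 21 and 1 positive cells. *Myod1* stayed below the filter with 6 and 2 positive cells, and *Pax7*, which marks later muscle progenitors, had none.

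The muscle progenitor range held 23 Lgr5-GFP+ cells (10.9%, 7.04 to 15.9) and 3 bulk cells (1.48%). By pool these were 2, 0, 7, 4 and 10 Lgr5-GFP+ and 0, 0, 2, 0 and 1 bulk cells. Among the 23 cells, *Pax3* was positive in 23, *Eya1* in 22 and *Lbx1* in 20, which the choice of the cells largely fixes. Genes that the range did not use were also uneven. *Tcf15*, a factor of the paraxial mesoderm, was positive in 21 of the 23, at 249 RPM against 1.85 RPM in the other Lgr5-GFP+ cells. *Sim2* was positive in 11, at 178.04 against 3.43 RPM. Of the mesenchyme list, *Pdgfra* was at 0.802 against 91.8 RPM with 1 positive cell. *Twist1* was positive in 10 at 24.5 against 49.5 RPM, and *Prrx1* in 9 at 113.3 against 195.95 RPM. *Meox1* was positive in 11 and higher in the range, at 67.6 against 26.1 RPM. Of the 23 cells, 16 also lay in the mesenchyme range. *Alb* and *Afp* had no positive cell, and *Lgr5* was positive in 7, at 44.1 RPM in the muscle progenitor range and 68.1 RPM outside it.

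Genes of the septum transversum and of stellate cells lay on the other side. Of 5 compared genes all had negative log2 ratios and 3 were called lower. *Lhx2*, a regulator of hepatic stellate cells, was at 2.80 against 15.7 RPM, *Hlx*, needed in the liver mesenchyme, at 7.35 against 16.7 RPM, and *Des*, which encodes desmin, at 14.9 against 43.3 RPM. The range on this list held 3 Lgr5-GFP+ and 16 bulk cells. In the mesothelium list *Wt1* was called lower at 24.3 against 58.5 RPM, while *Upk3b* was at 32.8 against 32.4 RPM, and *Msln* was listed at 0.

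Across all 12365 genes, 961 were called higher and 708 lower in Lgr5-GFP+ cells, of which 872 and 663 are protein-coding. A total of 381 and 273 lay on the same side in all 5 pools. Among protein-coding genes that were positive in at least 10% of the cells of the higher sort, the 12 with the highest ratios were *Epb41l4b*, *Rhbg*, *Onecut3*, *A1cf*, *Gdf15*, *Grb7*, *Osgin1*, *Lurap1l*, *Agmat*, *F12*, *Cib2* and *Paqr9*. *Epb41l4b* led at 22.3 against 0.162 RPM and was higher in each pool. *A1cf*, the partner of the enzyme that edits *Apob* RNA, was at 68.999 against 1.04 RPM, *Rhbg*, an ammonium transporter, at 15.3 against 0.198 RPM, and *Gdf15*, a distant TGF-beta relative, at 33.5 against 0.530 RPM. *F12* encodes coagulation factor XII and was at 23.7 against 0.676 RPM. Those at the other end included *Rhag*, *Ermap*, *Ctse*, *Klf1*, *Ccnb1ip1*, *Ptprcap*, *Mrap*, *Ikzf1*, *Kcnn4*, *Steap3* and *Hbb-bh1*. *Ermap*, an erythroblast membrane protein, was at 0.112 against 87.2 RPM and positive in 0 and 25 cells. *Ikzf1*, a zinc finger factor of blood cells, was at 0.273 against 30.2 RPM, *Kcnn4*, the calcium-activated potassium channel of red cells, at 0.404 against 37.2 RPM, and *Steap3*, a ferrireductase, at 0.25 against 19.999 RPM.

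**Figure D4:**
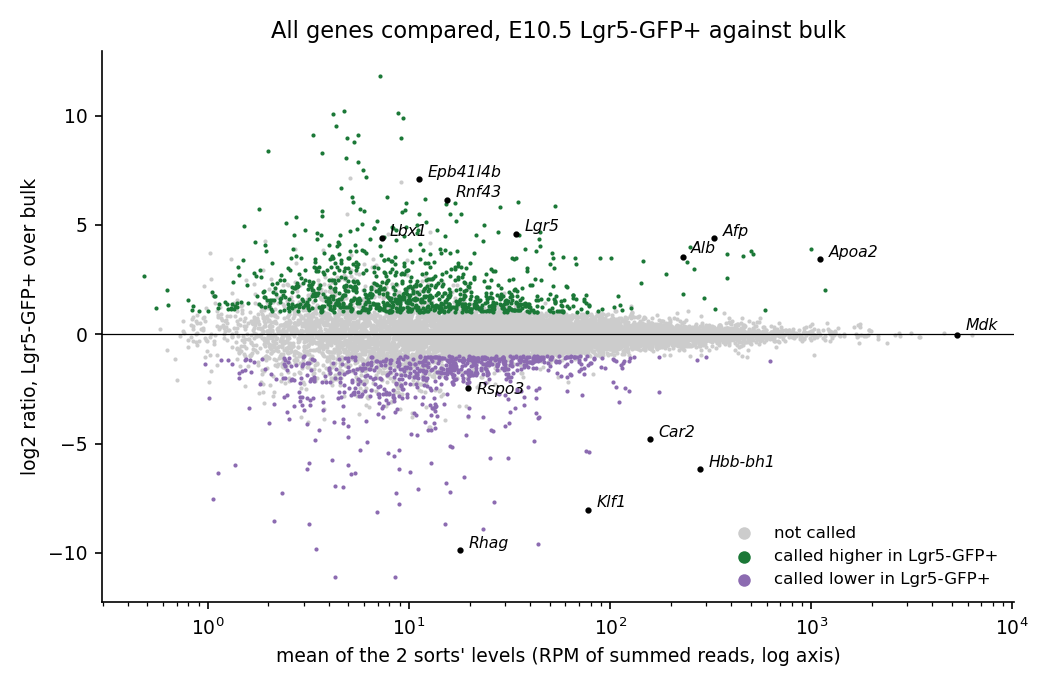
Log2 ratio of Lgr5-GFP+ over bulk for the 12365 compared genes against the mean level of both sorts, in RPM on a log axis. The 961 genes called higher and the 708 called lower are coloured. *Rhag* and *Klf1* lie lowest among the labelled genes and *Epb41l4b* highest.

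The study used *Id3*, *Mdk* and *Gpc3* as markers of its hepatoblast cluster. *Ttr*, *Alb*, *Apoa1*, *Apoa2* and *C3* served for its hepatocyte-like cluster, and *Car2*, *Cd44* and *Bcl11a* for its cholangiocyte-like cluster. *Id3*, *Mdk* and *Gpc3* were near equal between the sorts, at 2082 against 1866 RPM, 5289 against 5362 RPM and 1064 against 948 RPM. More Lgr5-GFP+ cells were positive for each, 94.3% against 69.95% for *Id3* and 99.5% against 87.7% for *Mdk*. *Car2*, which encodes a carbonic anhydrase of red cells and other tissues, was called lower at 10.9 against 305 RPM with 13 and 79 positive cells. *Bcl11a*, a repressor of globin genes, was called lower at 40.5 against 102.9 RPM, and *Cd44*, an adhesion receptor, was at 6.49 against 32.7 RPM but on the same side in fewer than 4 pools. *C3*, of the complement system, was called higher at 70.5 against 4.70 RPM.

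The pathway around *Lgr5* was read next. Of 8 compared receptors, R-spondins and ligases, 3 were called higher (*Lgr5*, *Rspo4* and *Rnf43*) and 1 lower (*Rspo3*). Of all compared genes 7.77% were called higher and 5.73% lower. *Lgr5* is the locus of the sorted reporter, so its call is not independent of the sort. *Rnf43* was at 0.0188, 82.2, 25.5, 8.18 and 29.4 RPM in the Lgr5-GFP+ pools and at 0.181, 0.0978, 1.71, 0.0187 and 0.0654 RPM in the bulk pools. It was higher in pools 2 to 5 and near 0 in both sorts in pool 1. *Znrf3*, the other ligase, was at 236 against 160 RPM and *Lgr4*, the broadly expressed relative of *Lgr5*, at 186.8 against 134.8 RPM. Neither was called. *Rspo3*, an R-spondin of liver stroma and vessels, was at 15.2, 0.138, 6.12, 0.912 and 8.79 RPM against 62.005, 41.7, 15.7, 29.5 and 17.7 RPM, lower in each pool. *Lgr6* stayed below the filter.

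Wnt target genes leaned towards the Lgr5-GFP+ sort without passing the limit for the most part. All 8 compared genes had positive log2 ratios, with a median of 0.69, and *Sp5* was called at 20.5 against 3.66 RPM. *Axin2*, the common readout of Wnt activity, was at 34.9, 19.6, 37.9, 48.2 and 27.3 RPM in the Lgr5-GFP+ pools and at 36.6, 34.4, 13.7, 10.98 and 13.9 RPM in the bulk pools. It was higher in Lgr5-GFP+ cells in pools 3 to 5 and lower in pools 1 and 2, with 68 and 28 positive cells. *Lef1*, a nuclear partner of beta-catenin, was at 93.8 against 54.9 RPM and *Nkd1*, a Wnt inhibitor, at 103.65 against 55.9 RPM. Among 26 ligands, receptors and secreted inhibitors 6 were called higher and none lower, where 7.77% and 5.73% of all compared genes were. *Wnt2* was at 73.9 against 34.998 RPM, *Wnt2b* at 14.8 against 2.27 RPM and *Sfrp2*, a secreted inhibitor, at 81.5 against 31.9 RPM.

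Other signalling lists held called genes, most of them higher, where 7.77% of all compared genes were called higher and 5.73% lower. *Met*, *Pdgfrb* and *Rbp4* also stand on the muscle, mesenchyme and carrier lists, so their calls are counted again here. Of 17 BMP and TGF-beta genes 4 were called higher, among them *Bmp2* at 10.9 against 1.42 RPM and its antagonist *Grem1* at 18.7 against 3.91 RPM. Of 10 Notch pathway genes 3 were called higher, *Notch1* (19.9 against 6.05 RPM), *Dll1* (8.59 against 1.04 RPM) and *Hey2* (13.8 against 4.23 RPM). Of 20 growth factors and receptors, *Met*, *Fgfr4* and *Pdgfrb* were called higher and *Kit* lower. *Met*, the HGF receptor, was at 32.5 against 3.88 RPM, and *Hgf* was below the filter with 2 and 7 positive cells. Among 11 retinoid genes, *Rbp4* was called higher, and *Aldh1a2*, which makes retinoic acid, and *Stra6*, the retinol transporter, lower, at 23.3 against 55.6 RPM and 26.5 against 56.2 RPM.

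Of the genes of growth, none of 17 mitotic genes was called, and *Mki67*, the proliferation antigen, was at 226 against 191.1 RPM. Positive log2 ratios were held by 13 of the 17 and negative ones by 4, with a median of 0.27. The summed level of the mitotic genes was 5002 against 4138 RPM, higher in Lgr5-GFP+ cells in each pool but pool 2, where it was 3936 against 5234 RPM. Of 15 replication genes 14 had negative log2 ratios, with a median of -0.37. Their summed level was 2612, 2981, 3477, 3524 and 3259 RPM in the Lgr5-GFP+ pools and 3239, 3449, 4330, 4578 and 4277 RPM in the bulk pools, lower in Lgr5-GFP+ cells in each pool. *Cdc6*, which licenses replication origins, was the gene of the list called lower at 47.2 against 103.2 RPM. *Cdkn1a*, the p21 inhibitor of the cell cycle, was the 1 called gene of 8 cyclins and inhibitors, higher at 43.1 against 16.5 RPM. No gene of 13 imprinted genes, 15 of cholesterol and fatty acid synthesis or 11 immediate early and heat shock genes was called. *Dlk1*, a marker of fetal hepatoblasts, was at 486 against 251 RPM and *H19* at 1129 against 942 RPM. Of 20 collagen and matrix genes, *Col6a2* and *Lamc1* were called higher, and of 13 Hox genes *Hoxd9* was called lower at 1.28 against 13.4 RPM. Over all compared genes 7.77% were called higher and 5.73% lower. The counts of called matrix, Hox and replication genes are near these shares and are no result about those lists.

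**Figure D5:**
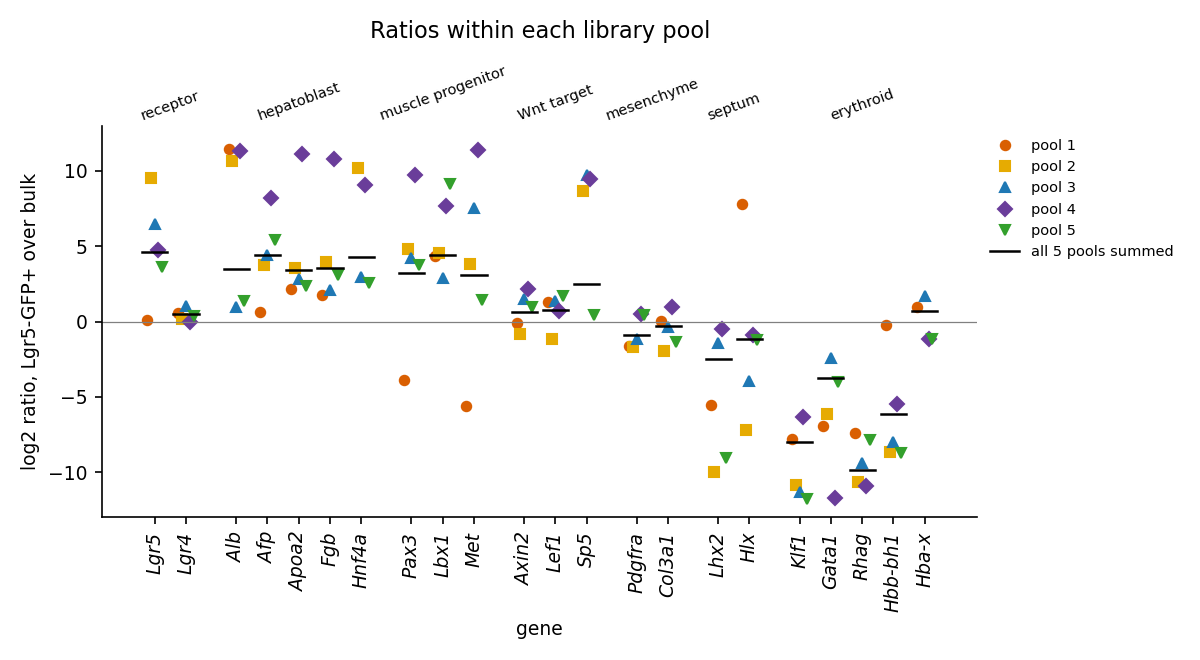
Log2 ratio of Lgr5-GFP+ over bulk within each of the 5 library pools (symbols) and over all pools (black lines) for genes of each group. *Lgr5* is near 0 in pool 1 and above it in pools 2 to 5, *Klf1* and *Rhag* lie below 0 in each pool, and *Axin2* changes side between pools.

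The comparison was repeated in all but the 63 Lgr5-GFP+ and 7 bulk cells of the hepatoblast range, where 11842 genes were compared. There 595 genes were called higher (5.02%) and 785 lower (6.63%). Of the 961 genes called higher in all cells, 419 (43.6%) were also called outside the range, and these were 70.4% of the 595. A further 235 of the 961 fell below the filter there. Of the 708 called lower, 73.2% were called again, and these were 65.99% of the 785. The hepatoblast genes themselves were removed by the choice of cells, and 4 of them still passed the filter. *Cdh1* was at 12.7 against 0.816 RPM and *Epcam* at 58.8 against 6.51 RPM, both called higher, in 9 and 1 and in 15 and 7 positive cells.

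The genes with the highest ratios outside the range included *Myoz3*, *Lbx1*, *Cib2*, *Sim2*, *Lgr5*, *Sema3e* and *Trpm3*. *Lbx1* belongs to the muscle list, of which 5 of 6 genes were called here, with a median log2 ratio of 3.70. *Sim2*, a bHLH-PAS factor, was at 33.3 against 1.93 RPM with 16 and 3 positive cells. *Myoz3*, a protein of the muscle Z-disc, was at 17.1 against 0.0861 RPM, but 59.2% of its reads came from 1 cell. It was positive in 1 of the 23 Lgr5-GFP+ cells of the muscle progenitor range. Its level was 2.94 RPM in them and 13.3 RPM in the other Lgr5-GFP+ cells. *Lgr5* was at 5.47, 4.98, 92.9, 56.3 and 62.8 RPM against 5.10, 0.124, 1.25, 2.503 and 5.29 RPM, so that outside the hepatoblast range both pools 1 and 2 were low. The 8 at the other end were *Rhag*, *Sh2d4a*, *Ermap*, *Ctse*, *Slc38a5*, *Klf1*, *Ccnb1ip1* and *Ptprcap*, with at most 2 positive Lgr5-GFP+ cells each. Of the Wnt targets, *Lef1* (125.5 against 56.95 RPM) and *Dkk1* (94.6 against 39.5 RPM) were called here, and *Axin2* was at 38.5 against 22.5 RPM.

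Within the mesenchyme range, the sorts were compared over 11036 genes, and 576 were called higher (5.22%) and 539 lower (4.88%). This comparison and the genes named for it were chosen after the values were seen. The overlap of the range with other ranges differed between the sorts. Of its Lgr5-GFP+ cells 16 also lay in the muscle progenitor range and 5 in the hepatoblast range, against 2 and 1 bulk cells. *Met*, named below, stands on the muscle list. *Axin2* was called higher at 46.5 against 20.6 RPM, in 50.8, 42.6, 49.5, 52.7 and 31.5 RPM against 36.8, 0, 21.9, 17.2 and 21.6 RPM by pool. It was higher in each pool, as was *Lef1* with 133.3 against 49.8 RPM. *Wnt2* was at 134.4 against 55.6 RPM and *Grem1* at 28.6 against 6.71 RPM, both called higher. *Rspo3* was called lower at 9.61 against 29.2 RPM. The septum list was again lower, with 4 of 5 genes called, *Lhx2*, *Hlx*, *Gata4* and *Des*. *Gata4* was at 33.3 against 97.4 RPM here and *Wt1* at 43.9 against 89.3 RPM. *Met* had the second highest ratio, at 20.2 against 0.170 RPM, and *S100a8* and *S100a9*, alarmins of myeloid cells, were among the lowest at 0.0350 against 2.48 RPM and 0.0490 against 2.95 RPM. *Mki67* was called higher at 274 against 130 RPM, the 1 gene of 17 mitotic genes that was. Of these 17, 15 had positive log2 ratios, with a median of 0.65. Of 15 replication genes, 14 had negative ones, with a median of -0.28.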

How the data were processed

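Single cells were sequenced after a protocol adapted from Smart-seq2. Per the labels and the study's methods, reads were aligned to GRCm38 with STAR 2.6.0c and uniquely aligned reads were counted per gene with featureCounts of Subread 1.6.2 against an Ensembl annotation, and cells that failed the authors' quality limits were removed before the table was deposited. The raw read counts were used here, and a second deposited table of normalised values was not used. The labels give no molecular identifiers.

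The comparison used 211 Lgr5-GFP+ and 203 bulk cells of E10.5. Counts were summed per sort and divided by all counted reads of the sort, and pools were summed in the same way (Python 3.11.15, NumPy 2.4.6, pandas 2.3.3, SciPy 1.17.1, matplotlib 3.10.9). The table has 54195 genes, 27414 of them listed at 0 in all 414 cells, with 0 spike-in rows and 0 mitochondrial genes. Another 239 columns of cells were not used. Reads per cell and intervals are given with the results. Cells were sorted singly, and no doublet caller was run. The study's methods speak of biological replicates from several experiments, but the labels give no cell its experiment. Each sort is therefore 1 sample, and no test across cells was made.

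The groups, the 36 gene lists (442 genes) and the ranges were chosen with earlier results of these data known. Genes were named by a rule: the Lgr, R-spondin and E3 ligase genes, the study's cluster markers, the 12 called genes with the largest ratio each way (8 outside the hepatoblast range) among protein-coding genes positive in at least 10% of the cells of the higher sort, and list members with the largest or smallest ratio or with a stated role. Some genes are not reported here. Alternatives were other filters, limits on fold and pools, thinning, median of ratios scaling, other limits for positive cells and ranges, and leaving out pools or blood cells.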

Additional observations from a re-analysis of the deposited data

How the results depend on the processing

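No paired analysis was possible because replicate numbers only follow accession order and each sort is 1 sample, so the sorts were set side by side within library pools instead. Scaling by the median of ratios shifted log2 ratios by -0.0016. With a pool left out and the same side asked in all 4 others, the percent of the genes compared that were called higher was 4.15 to 5.80 and lower 3.17 to 3.78 in all cells, 2.46 to 3.59 and 4.08 to 4.47 outside the hepatoblast range, and 2.82 to 3.18 and 2.64 to 2.98 in the mesenchyme range. Without pool 1 it was 5.80 and 3.78 in all cells. Asked in 3 of the 4 others, a rule chosen after the data were seen, it was 8.81 to 9.90 and 7.15 to 8.28 in all cells, 6.73 to 7.53 and 7.38 to 9.34 outside the hepatoblast range, and 6.67 to 8.03 and 6.41 to 7.91 in the mesenchyme range, and without pool 1 it called 789 of the genes called higher and 573 of those called lower in all cells again.

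The percent called higher and lower, in all cells and then outside the hepatoblast range, was 5.65, 4.44, 3.71 and 4.88 after thinning, 7.81, 5.11, 5.33 and 6.19 with at least 10 reads as the only filter (1711, 1119, 1133 and 1315 genes), 3.82, 3.42, 2.70 and 3.95 with more than 10 reads in at least 41 cells (337, 302, 223 and 326 genes), 3.08, 2.21, 1.57 and 2.90 with the same side in all 5 pools, and 3.11, 2.0, 1.6 and 2.36 past 4-fold. With no condition on pools, 9.72% were called lower in all cells, and 8.55% higher and 10.2% lower outside the range. In cells with no positive hepatoblast gene 3.46% were called higher. With cells of the erythroid (globins included), megakaryocyte and leukocyte ranges left out as well, 2.69% and 2.59% were called, which also takes out each of the 45 Lgr5-GFP+ cells of pool 1. With globins not counted, 5.03% and 5.13% were called. Thinning left 3.29% and 3.88% in the mesenchyme range.

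Shares of bulk cells stand after the word against. The share of *Lgr5*-positive Lgr5-GFP+ cells was 24.56% to 36.75% with a pool left out, 13.04% in pools 1 and 2, 42.02% in pools 3 to 5, 16.59% after thinning, 53.08% against 18.72% with any read and 21.33% with more than 50 reads. Their hepatoblast range held 17.68% to 37.35% with a pool left out, 38.04% in pools 1 and 2, 23.53% in pools 3 to 5, 68.25% against 49.26% with any read and 48.34% against 22.17% with at least 1 gene. Their mesenchyme range held 48.82% to 62.80%, then 41.30% in pools 1 and 2, 63.87% in pools 3 to 5, 42.18% after thinning, 92.42% against 92.12% with any read, 70.14% against 77.34% with at least 1 gene and 34.60% with at least 5. Their erythroid range held 7.23% to 34.76%, then 10.08% against 36.67% in pools 3 to 5, 2.84% against 20.20% after thinning, 55.45% against 98.52% with any read, 4.74% against 21.18% with more than 50 reads, 60.19% against 68.97% with at least 1 gene, 1.42% against 19.21% with at least 5 and 0.948% against 19.70% without globins. It changed side in pools 1 and 2, at 48.91% against 45.78% of bulk cells, where the log2 ratio of the summed erythroid list was -0.91.

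Some genes changed side. In pools 1 and 2 alone the log2 ratio of *Pax3* was -2.94 in all cells and -2.29 outside the hepatoblast range, and outside it *Eya1* had -0.75 and *Cd44* 0.82. With blood cells left out, globins not counted, *Steap3* had 0.33 and *Hbb-bh1* 0.05, and outside the range *Cd44* had 0.19, or 0.31 with globins counted. The cause of these changes was not tested.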

Other observations

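With globins not counted, 17 Lgr5-GFP+ cells (8.06%) and 32 bulk cells (15.8%) lay in none of the marker ranges, and none of them was positive for *Lgr5*. Of the genes of the Y chromosome, *Uty* was called higher in Lgr5-GFP+ cells at 35.3 against 14.6 RPM, *Kdm5d* was at 22.8 against 18.1 RPM, *Ddx3y* at 38.8 against 43.9 RPM and *Eif2s3y* at 24.1 against 43.8 RPM, and *Xist* was listed at 0 in every cell. Within the mesenchyme range *Uty* was again called higher and *Eif2s3y* lower. The sex of the embryos is not given in the labels.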
